A study of Mus musculus with 4 samples.

Results

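The genes described here are those of elastin (Eln), the fibrillins (Fbn1, Fbn2), microfibril-associated proteins (Mfap2, Mfap4, Mfap5) and fibulins (Fbln1, Fbln2, Fbln5 and Efemp2), chosen by name. All 10 were found among the 22913 genes of the deposited tables, and 9 of them had an FPKM (fragments per kilobase of gene and 1000000 mapped fragments) of at least 1 in every library, Fbn2 being the exception. Elastic fibres give skin its recoil, and they are built from a core of cross-linked elastin on a scaffold of fibrillin microfibrils. Microfibril-associated proteins decorate the scaffold, fibulins help to place elastin on it, and lysyl oxidases cross-link the elastin once it is laid down. In skin and fat these proteins are made chiefly by fibroblasts and by the mural cells of vessels, and microfibrils also hold growth factors of the TGF-beta family in the matrix.

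The libraries came from dWAT (dermal white adipose tissue, the fat layer around the lower ends of hair follicles (HFs)) of C57BL/6 mice, with 1 library in each of 4 groups. OTD was from old and YTD from young mice in telogen, the resting phase of the HF, while OAD was from old and YAD from young mice in anagen, the growth phase, which had been induced by depilation. Per the series' design text the old mice were 18 months old and the young mice 2 months old, but the characteristics field lists YTD at 18 months and OAD at 2 months, which conflicts with the titles, and the titles were followed here. The study harvested dWAT of many mice per group by microdissection, and how the animals were pooled is not given in the sources used here. With 1 library per group no difference has a replicate error or a p-value, so each comparison is one between single libraries. In tissue RNA, fewer cells of a type and less RNA per cell cannot be told apart.

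The low FPKM values gave a rough depth of 18.8 to 22.6 times 1000000 fragments per library, from which the fragments of each gene and approximate 95% counting intervals were estimated. These intervals cover counting error only and not the spread between mice. The make-up of the libraries differed in ways that bear on scaling. Genes of the mitochondrial genome held 44.7 to 52.7% of the summed FPKM in telogen and 14.4 to 18.3% in anagen, and keratin and keratin-associated protein genes held 0.0635 to 0.113% in telogen and 13.9 to 15.1% in anagen. Of 15 adipocyte markers 14 to 15 had an FPKM of at least 1 in each library. All 20 skeletal muscle markers did so too and held 2.23 to 10.9% of the summed FPKM. This rule therefore cannot tell whether the label as fat was met. A change is given as the difference of log2(FPKM + 1), a scale that compresses low genes, and a gene was counted as higher or lower when the change was at least 1 in size.

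Eln (ENSMUSG00000029675, GRCm38 chromosome 5 from 134703781 to 134747241, minus strand) encodes tropoelastin, the monomer of the elastic core. Its FPKM was 35.7 in YTD and 29.3 in OTD, and 27.3 in YAD and 15.9 in OAD. It was the highest of the 10 genes in YTD, OAD and YAD, and both old libraries were below the young library of the same phase. The ratio of old to young was 0.821 (95% counting interval 0.765 to 0.881) in telogen and 0.585 (0.539 to 0.635) in anagen. The log2 changes, -0.28 and -0.74, were short of the threshold. The telogen change depended on scaling: without mitochondrial genes it was -0.06, while the anagen change was -0.89.

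**Figure D1:**
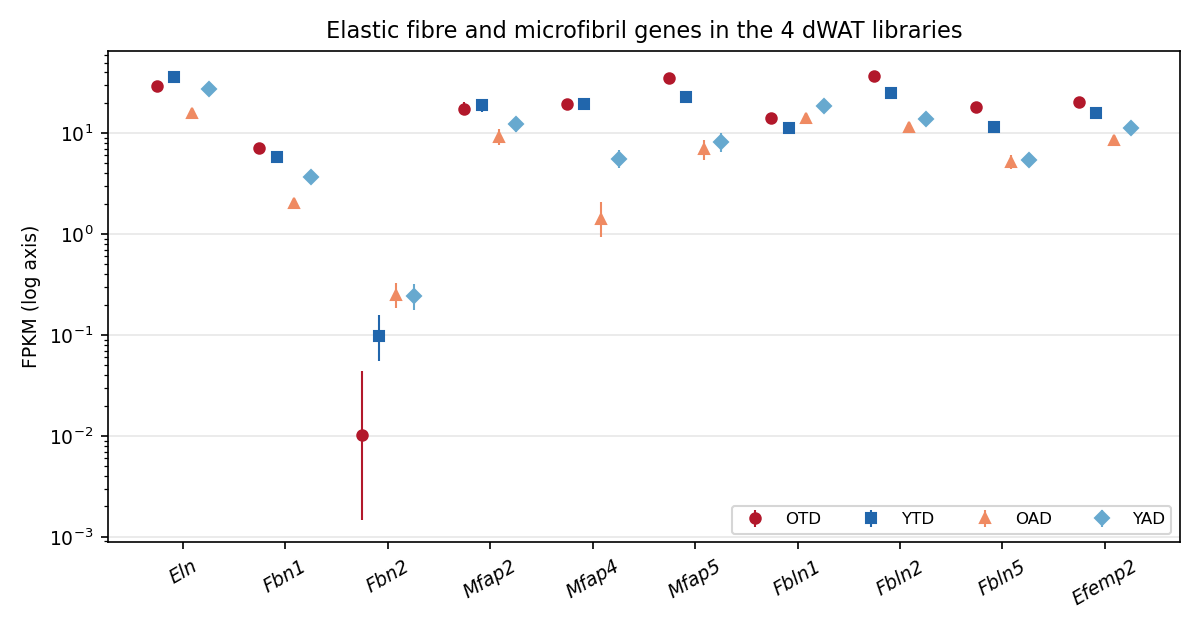
FPKM of each gene (log axis) in the libraries OTD, YTD, OAD and YAD, with 1 point per library and bars that give the approximate 95% counting interval. Of the 10 genes, 8 were highest in a telogen library, while Fbln1 was highest in YAD and Fbn2, at most 0.247, was highest in OAD.

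Fbn1 (ENSMUSG00000027204, chromosome 2 from 125300594 to 125507993, minus strand, 66 exons in its longest coding transcript) encodes fibrillin-1, the main microfibril protein of adult tissue. Its FPKM was 5.74 in YTD and 7.09 in OTD, and 3.68 in YAD and 2.02 in OAD, so that both telogen libraries lay above both anagen libraries. The old library was the higher in telogen, at a ratio of 1.23 (1.13 to 1.35), and the lower in anagen, at 0.548 (0.483 to 0.62). Its span overlaps that of the plus-strand gene Gm9913 over 2793 bases, and whether strand was used in counting is not given in the sources used here. Fbn2 (ENSMUSG00000024598), which encodes the largely fetal fibrillin-2, had an FPKM of 0.0966 in YTD and 0.0102 in OTD, and 0.243 in YAD and 0.247 in OAD. These values stand for about 15.9, 1.68, 47.4 and 48.7 fragments. The OTD value is under the 3 fragments taken as the floor, and the ratio of OTD to YTD was 0.105 with a wide interval of 0.0139 to 0.53. In young mice Fbn2 was 2.52-fold (1.38 to 4.69) higher in anagen than in telogen, and 4.52-fold in TPM. The ratio of the FPKM of Fbn1 to that of Fbn2 was 59.5 in YTD and 696 in OTD, and 15.1 in YAD and 8.17 in OAD, the OTD ratio resting on the few Fbn2 fragments there.

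Mfap2 and Mfap5 encode the small glycoproteins MAGP-1 and MAGP-2, which bind fibrillin. Mfap2 (ENSMUSG00000060572, chromosome 4 from 141010418 to 141015984, plus strand) had an FPKM of 18.8 in YTD and 17.4 in OTD, and 12.2 in YAD and 9.24 in OAD. Mfap5 (ENSMUSG00000030116, chromosome 6 from 122505845 to 122529290, plus strand) had 22.7 in YTD and 35.2 in OTD, and 8.11 in YAD and 6.88 in OAD. The pair was thus ordered differently in the 2 phases, with Mfap5 at 2.02 times Mfap2 in OTD and 1.21 times in YTD, but at 0.745 times in OAD and 0.664 times in YAD. The counting intervals of the ratio of old to young held 1 for Mfap2 in telogen, at 0.928 (0.757 to 1.14), and for Mfap5 in anagen, at 0.849 (0.615 to 1.16). In telogen Mfap5 was 1.55-fold (1.3 to 1.85) higher in OTD.

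Mfap4 (ENSMUSG00000042436, chromosome 11 from 61485431 to 61488900, plus strand), whose product has a fibrinogen-related domain and binds elastin and fibrillin, had the widest range of the 10 genes on the log2(FPKM + 1) scale. Its FPKM was 19.6 in YTD and 19.4 in OTD, and 5.58 in YAD and 1.41 in OAD. The telogen libraries were within counting error of each other, at a ratio of 0.99 (0.843 to 1.16), and far above both anagen libraries. In anagen OAD was 3.96-fold (2.56 to 6.25) lower than YAD, and in old mice anagen was 13.7-fold (9.24 to 21.1) lower than telogen, a fold that was 8.94 in TPM. About 27 fragments stand behind the OAD value. Its span overlaps that of Mapk7, on the other strand, over 89 bases.

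Of the fibulins, Fbln5 and Efemp2 (fibulin-4) are needed for elastic fibre assembly, and both bind tropoelastin. Fbln5 (ENSMUSG00000021186, chromosome 12 from 101746565 to 101819055, minus strand) had an FPKM of 11.5 in YTD and 18.1 in OTD, and 5.37 in YAD and 5.16 in OAD. Efemp2 (ENSMUSG00000024909, chromosome 19 from 5473973 to 5481853, plus strand) had 15.8 in YTD and 20.2 in OTD, and 11.3 in YAD and 8.59 in OAD. Both were highest in OTD, where they exceeded YTD 1.58-fold (1.36 to 1.83) and 1.28-fold (1.13 to 1.46). In anagen the ages were within counting error for Fbln5, at a ratio of 0.961 (0.764 to 1.2), but not for Efemp2, at 0.757 (0.642 to 0.887).

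Fbln1 and Fbln2 encode fibulins found in basement membranes as well as in elastic fibres. Fbln2 (ENSMUSG00000064080, chromosome 6 from 91212455 to 91272540, plus strand) had an FPKM of 25.0 in YTD and 37.0 in OTD, and 13.8 in YAD and 11.5 in OAD. Fbln1 (ENSMUSG00000006369, chromosome 15 from 85205949 to 85286535, plus strand) had 11.2 in YTD and 14.1 in OTD, and 18.5 in YAD and 14.2 in OAD. As deposited, the other 8 genes whose FPKM was at least 1 in every library were lower in anagen than in telogen at both ages, and Fbln1 was lower at neither (in old mice its change of 0.01 turned sign under 3 of 7 alternatives, from -0.15 to 0.58), although in TPM (here FPKM rescaled so that each library has a common total) Eln, Fbn1, Mfap2 and Efemp2 were higher in YAD than YTD. Within a library, a comparison free of scaling, Fbln1 stood at 0.382 times Fbln2 in OTD and 0.448 times in YTD, but at 1.24 times in OAD and 1.34 times in YAD.

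Windows of 250 bases before a RefSeq transcription start (build GRCm38.p6) were given for 6 of the 10 genes, and 3 windows that overlap no annotated exon of their gene are shown because the FPKM of Fbln5 and Efemp2 was lower in anagen while that of Fbln1 was not (for Efemp2 the young comparison turned in TPM). Searched on both strands were TATAAA as a core promoter motif, CCAAT as a site of the factor NF-Y, GGGCGG as a site of Sp1, TGANTCA as a site of AP-1, and CAGACA as a site of SMAD proteins, and matches are in capitals, with none overlapping another. A match is a description of the sequence only.
Fbln5, chr12:101819120-101819369, minus strand: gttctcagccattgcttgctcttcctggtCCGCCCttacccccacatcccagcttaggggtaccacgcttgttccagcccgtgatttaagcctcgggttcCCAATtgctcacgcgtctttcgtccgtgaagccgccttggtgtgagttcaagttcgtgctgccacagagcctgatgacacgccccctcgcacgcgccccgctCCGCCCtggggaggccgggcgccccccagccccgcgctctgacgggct
Efemp2, chr19:5473696-5473945, plus strand: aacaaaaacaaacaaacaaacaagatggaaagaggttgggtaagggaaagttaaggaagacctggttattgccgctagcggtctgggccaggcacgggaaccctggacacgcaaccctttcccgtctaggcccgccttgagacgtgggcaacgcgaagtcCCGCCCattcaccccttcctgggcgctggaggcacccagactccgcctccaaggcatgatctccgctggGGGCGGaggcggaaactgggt
Fbln1, chr15:85205699-85205948, plus strand: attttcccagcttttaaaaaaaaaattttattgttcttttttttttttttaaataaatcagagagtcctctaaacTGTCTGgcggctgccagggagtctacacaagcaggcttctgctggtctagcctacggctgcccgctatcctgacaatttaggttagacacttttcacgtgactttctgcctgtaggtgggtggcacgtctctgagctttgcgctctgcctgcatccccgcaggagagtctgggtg
The windows of Fbln5 and Efemp2 each held 2 matches to GGGCGG, which is found in 32.7% of the 32851 RefSeq windows, and that of Fbln5 also held CCAAT, found in 33.8%. The window of Fbln1 held neither, and had 1 match to CAGACA, found in 17.1%. TATAAA, in 12.4% of all windows, and TGANTCA, in 6.75%, had no match in the 3 windows. G and C made up 65.2% of the Fbln5, 59.2% of the Efemp2 and 46.4% of the Fbln1 window, against a median of 52.4% over all windows. Other start sites of the same genes gave other contents: a second Fbln1 window, not shown because it overlaps an exon, held 1 GGGCGG and 1 CAGACA at 62.4% G and C. The other Fbln5 window, also over an exon, held CAGACA and neither GGGCGG nor CCAAT at 49.6%. The motifs and base content therefore did not separate Fbln1 from Fbln5 across all their windows.

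Old and young dWAT were first compared in telogen. None of the 10 genes reached a log2 change of 1 in OTD against YTD, where 3.6% of 17230 genes did (1.67% higher and 1.93% lower in OTD). The median change was 0.29, beside -0.03 over all genes, with 6 genes higher and 4 lower in OTD. The higher values were those of Mfap5 and Fbln5 (both 0.61), Fbln2 (0.55), Efemp2 (0.34), Fbln1 (0.31) and Fbn1 (0.26). Eln and Fbn2 were lower, Eln by -0.28 as deposited and by -0.06 when mitochondrial genes were left out before scaling. Mfap2 (-0.10) and Mfap4 (-0.01) were near 0 and turned positive with those genes left out (0.11 and 0.20). The ratio of Eln to Fbln5 within a library, which no scaling can move, was 1.62 in OTD and 3.11 in YTD. Markers of other cells moved with these genes: OTD exceeded YTD for 11 of 14 measured fibroblast markers (median 0.39, summed FPKM 1700 against 1460, Dlk1 at 0 in both). It did so for 8 of 12 smooth muscle and pericyte markers (median 0.58), although their summed FPKM was 1900 against 2160. Des alone, which was lower in OTD, held 1040 and 1670 of these sums. All 12 endothelial markers were higher in OTD (median 0.58), while all 20 skeletal muscle markers (median -0.67) and all 18 measured hair shaft markers (median -0.86) were lower. Their part in the result was not tested.

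In anagen 1 gene, Mfap4, fell by at least 1 on the log2 scale in OAD against YAD (-1.45), where 1.18% of 17613 genes passed in either direction, 0.727% being higher and 0.454% lower. The median of the 10 genes was -0.36, beside 0.00 over all genes, and 9 were lower in OAD. After Mfap4 came Eln (-0.74) and Fbn1 (-0.63), and then Mfap2 and Efemp2 (both -0.37), Fbln1 (-0.36), Fbln2 (-0.25), Mfap5 (-0.21) and Fbln5 (-0.05). Fbn2 was at 0.00. Eln, the fibrillin-1 gene and Mfap4 therefore had the lowest values, and 1.4%, 1.98% and 0.23% of the genes whose FPKM was at least 1 in either library had a lower change than Eln, Fbn1 and Mfap4. OAD was below YAD for 10 of 14 measured fibroblast markers (median -0.47, summed FPKM 273 against 468). The other 4 were higher, by at most 0.38. The 3 that passed were the collagen genes Col1a1 (16.5 against 64.4), Col1a2 (21.7 against 78.3) and Col3a1 (33.5 against 95.6), which hold much of the gap in the sum. Smooth muscle and pericyte markers had a median of 0.09, with 7 of 12 higher in OAD (summed FPKM 549 against 469). Des held 257 and 181 of these sums. All 12 endothelial and all 15 adipocyte markers were higher. Relative to the fibroblast median the change of Mfap4 was -0.98, and those of the other 9 genes ran from -0.27 (Eln) to 0.47 (Fbn2). The low FPKM of Fbn2 holds its own change near 0, and the next highest value was 0.42 (Fbln5). The part of cell make-up in these values was not tested.

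The age comparisons of telogen and anagen share no library, so they can be set side by side. For 9 of 10 genes the old minus young change was lower in anagen than in telogen, the difference running from -1.43 (Mfap4) to -0.27 (Mfap2), and for Fbn2 it was 0.12 higher. The same count of 9 was found under each of the other 4 scalings. The share of all genes with a lower change in anagen was not computed, so this count has no background beside it. List medians in telogen and anagen also went down for fibroblast (0.39 and -0.47) and macrophage (0.33 and -0.22) markers. So did those of smooth muscle and pericyte (0.58 and 0.09), endothelial (0.58 and 0.30) and Schwann cell (0.37 and 0.02) markers. Melanocyte (-0.10 and -0.76) and dermal papilla (-0.12 and -0.15) medians went down too. Medians went up for adipocyte (-0.10 and 0.30), skeletal muscle (-0.67 and 0.30), keratinocyte (-0.42 and 0.26) and hair shaft (-0.86 and 0.34) markers. Mfap4, Fbn1 (-0.90), Fbln2 (-0.80) and Mfap5 (-0.82) had the widest gaps. The difference between the phases has no test, since each phase has 1 library per age.

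**Figure D2:**
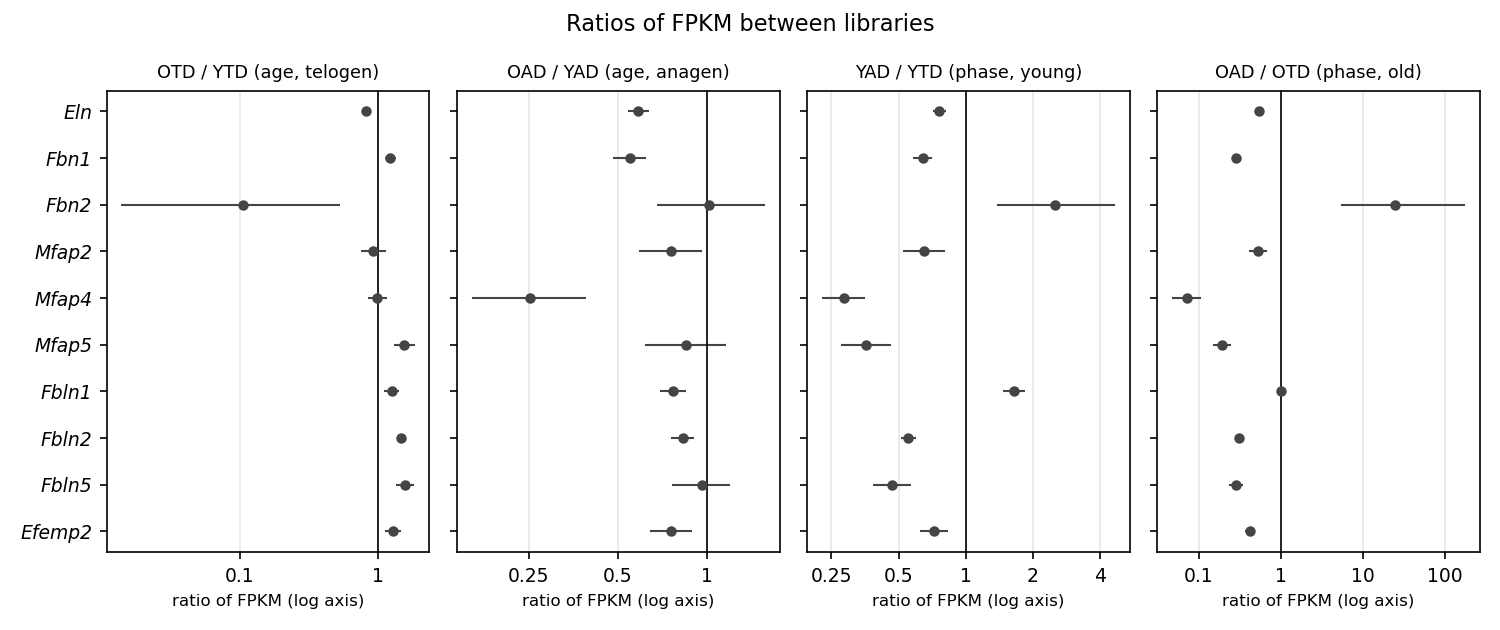
Ratio of FPKM between libraries (log axes whose ranges differ between panels) for each gene in the 4 comparisons, with bars for the approximate 95% counting interval and a line at 1. In telogen 6 genes lie above 1, in anagen Mfap4 lies lowest at 0.253, and between phases in old mice Mfap4 lies at 0.0729. In TPM, not drawn here, Eln, Fbn1, Mfap2 and Efemp2 were higher in YAD than YTD.

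Anagen and telogen were then compared within an age, using the same 4 libraries as the age comparisons. In young mice 2 genes, Mfap4 (-1.64) and Mfap5 (-1.38), fell by at least 1 in YAD against YTD, a share close to the 16.7% of 17622 genes that did so, with 32.7% passing in either direction and 16.1% higher. Neither passed in TPM, where Mfap4 was at -0.88 and Mfap5 at -0.60. The median was -0.55, beside 0.02 over all genes, and it turned to 0.19 in TPM, where the median of all genes was 0.45. Fbln5 (-0.97) and Fbln2 (-0.81) came next, followed by Mfap2 (-0.58), Fbn1 (-0.53), Efemp2 (-0.44) and Eln (-0.38), of which the last 4 turned positive in TPM. Fbln1 was higher by 0.67, and by 1.47 in TPM. Counting intervals held 1 for none of the 10 ratios.

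In old mice 6 genes fell in OAD against OTD, where 15.6% of 17712 genes did, 16.1% rose and 31.7% passed in either direction. They were Mfap4 (-3.08), Mfap5 (-2.20), Fbln5 (-1.63), Fbln2 (-1.61), Fbn1 (-1.42) and Efemp2 (-1.15), and only the first 4 passed in TPM. Mfap2 (-0.85) and Eln (-0.84) were lower, Fbln1 (0.01) lay near 0 and Fbn2 (0.30) was higher. The median was -1.28, beside 0.01 over all genes, and -0.76 in TPM, where the median of all genes was 0.32. With phase, fibroblast markers were lower too, with medians of -1.12 in young and -2.41 in old mice (-0.33 and -1.81 in TPM), and smooth muscle and pericyte markers had medians of -0.79 and -1.61 (0.04 and -1.15 in TPM). Markers of other cells moved as well. All 12 endothelial markers passed as lower at both ages (3 and 9 in TPM), all 15 adipocyte markers were lower with medians of -1.56 and -1.32 (-0.78 and -0.70 in TPM), and skeletal muscle markers had medians of -3.05 and -1.99 (-2.20 and -1.38 in TPM). Hair shaft markers had medians of 5.69 and 6.77. Relative to the fibroblast median the 10 genes ran from -0.67 (Mfap4) to 2.71 (Fbn2) in old mice, and all but Mfap4 were above it. The low FPKM of Fbn2, at most 0.247, holds its own change near 0, and the next highest value was 2.41 (Fbln1). The part of the cell types with these markers was not tested.

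**Figure D3:**
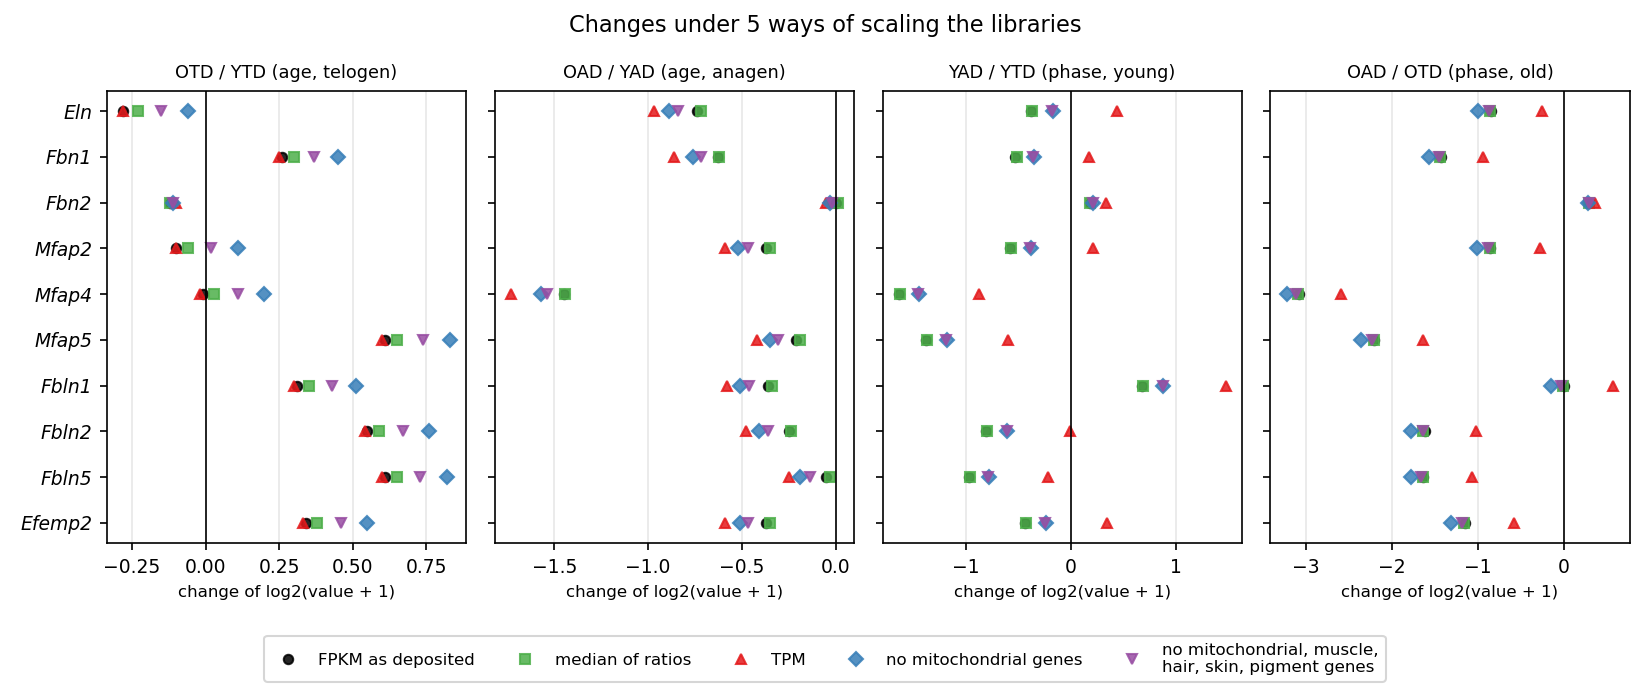
Change of log2(value + 1) of each gene in the 4 comparisons under 5 ways of scaling the libraries (symbols). The change of Mfap4 in OAD against YAD lies between -1.73 and -1.44 under the 5 scalings, while in YAD against YTD the TPM values of Eln, Fbn1, Mfap2 and Efemp2 lie above 0 and their values under the other 4 scalings lie below 0.

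Together the 10 genes summed to an FPKM of 166 in YTD and 198 in OTD, and 106 in YAD and 75.2 in OAD. The share each gene held of this sum does not depend on the scaling between libraries. Eln held 21.5% of the sum in YTD and 14.8% in OTD, and 25.7% in YAD and 21.2% in OAD, and was lower in share in the old library of each phase. Fbln1 held 7.15% in OTD and 6.76% in YTD but 18.9% in OAD and 17.4% in YAD. Mfap4 went the other way, with 9.79% and 11.8% in telogen and 1.88% and 5.26% in anagen. Mfap5 was at 13.7% in YTD and 17.8% in OTD, and 7.64% in YAD and 9.16% in OAD. Mfap2, Efemp2 and Fbn1 moved little, within 8.80 to 12.3%, 9.51 to 11.4% and 2.68 to 3.58%.

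**Figure D4:**
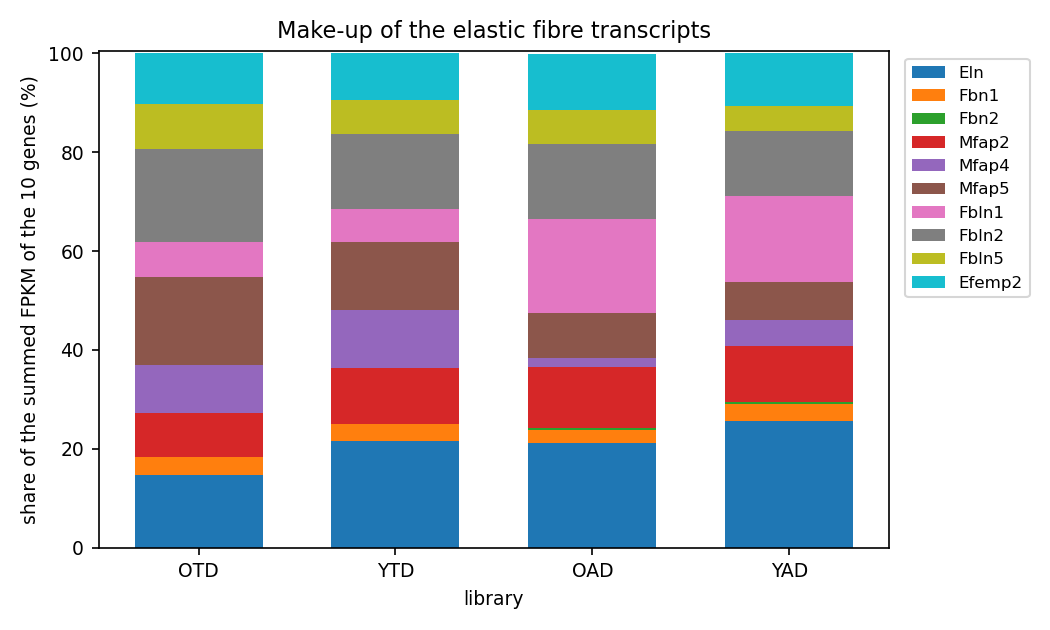
Share of the summed FPKM of the 10 genes (percent) held by each gene in OTD, YTD, OAD and YAD, as stacked bars. The Fbln1 share is 17.4 to 18.9% in the anagen libraries against 6.76 to 7.15% in telogen, while the Mfap4 share is 1.88 to 5.26% against 9.79 to 11.8%.

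The order of the levels also differed. In OTD Fbln2 and Mfap5 stood first, with overlapping counting intervals, and Eln came next, while in the other libraries Eln stood first. In OAD the interval of Eln (14.9 to 17.0) overlapped that of Fbln1 (13.2 to 15.3), which stood second in both anagen libraries. In telogen adjacent middle ranks overlapped, in OTD from Efemp2 through Mfap4, Fbln5 and Mfap2 to Fbln1, and in YTD from Fbln2 through Mfap5, Mfap4 and Mfap2 to Efemp2. The ends of these runs were apart, with Efemp2 (18.6 to 22.0) above Fbln1 (13.0 to 15.4) in OTD and Fbln2 (23.9 to 26.2) above Efemp2 (14.3 to 17.4) in YTD. Fbn1 stood below these in each library but OAD, where it was level with Mfap4, and Fbn2 stood last in all 4.

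Genes whose log2(FPKM + 1), centred on its mean, lay nearest over the 4 libraries were found for the 7 of the 10 genes with a range of at least 1 that had an FPKM of at least 1. Mfap4 had few near neighbours, with 3 of 13567 genes within a distance of 0.5, namely Mt3 (0.277), Col3a1 (0.382) and Col1a2 (0.392). Efemp2 had 1332 within that distance and Eln 432. The nearest genes were Fkbp5 for Eln (0.12), Itih5 and Col6a1 for Fbn1 (0.0994 and 0.122), Tspan4 for Mfap5 (0.0445), Marveld1 for Fbln2 (0.0459), C1qtnf7 for Fbln5 (0.0432) and Gpr20 for Efemp2 (0.0334). With 4 libraries such likeness describes these libraries only.

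Elastin becomes insoluble through lysyl oxidases, which need copper that the transporter Atp7a delivers. Of 6 genes of this list none passed with age in either phase as deposited, and 1 was lower in OAD in TPM. In anagen against telogen, as deposited, 16.7% of all genes in young and 15.6% in old mice were lower. Of this list 2 were lower and 1 higher in young mice, and 4 lower and 1 higher in old mice, while in TPM 0 and 1 were lower. Lox had an FPKM of 9.97 in YTD and 15.2 in OTD, and 2.88 in YAD and 3.78 in OAD, and Loxl1 had 12.8, 12.2, 5.15 and 3.59 in the same order. Loxl3 had 1.54, 1.87, 0.864 and 0.403. Atp7a went the other way, with 1.32 in YTD and 1.39 in OTD, and 5.58 in YAD and 6.64 in OAD. Within a library Lox stood at 0.519 times Eln in OTD, 0.279 times in YTD, 0.237 times in OAD and 0.106 times in YAD, so the old library was the higher in both phases.

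Of 21 measured genes for other proteins of microfibrils and the matrix around them, 2 passed as higher in OTD (Mmrn1 and Dcn, list median 0.18), and 1, the proteoglycan gene Vcan (-1.51), fell in OAD (list median -0.16). Of all genes 1.67% passed as higher in OTD and 0.454% as lower in OAD. In anagen 5 were lower in young mice and 9 in old mice (1 and 6 in TPM), with 0 and 1 higher (2 and 1 in TPM). Of all genes, as deposited, 16.7% in young and 15.6% in old mice were lower in anagen, and 16.1% at each age were higher. Dcn, the proteoglycan decorin, had an FPKM of 230 in YTD and 599 in OTD, and 107 in YAD and 85.8 in OAD. Mmrn1, of the EMILIN family, had 4.22, 14.5, 1.54 and 1.83 in that order, and Adamtsl4, whose product binds fibrillin-1, had 34.3, 18.2, 5.88 and 6.57. Prelp, a small leucine-rich proteoglycan, had 20.9, 31.3, 6.78 and 7.13. Dcn, Mmrn1 and Prelp were thus highest in OTD and Adamtsl4 in YTD. Of 6 relatives of the fibulins none passed with age as deposited or in TPM, but 1 was higher in OTD with the median of ratios and with either set of genes left out. Fbln7 lay at the threshold as deposited (change 1.0, FPKM 3.80 in OTD and 1.40 in YTD). In anagen 2 of the 6 were lower at each age (1 in TPM), beside 16.7% of all genes in young and 15.6% in old mice as deposited. Efemp1 (fibulin-3) had 27.0 in YTD and 41.6 in OTD, and 9.96 in YAD and 9.99 in OAD, and Egflam had 8.02, 5.79, 1.87 and 1.52.

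Of 11 receptor genes none passed with age, and 2 in young and 4 in old mice were lower in anagen (1 and 2 in TPM, where 1 was higher in old mice). The young count as deposited is close to the 16.7% of all genes that were lower. Itgb1, the common integrin beta subunit, had an FPKM of 136 in YTD and 122 in OTD, and 40.2 in YAD and 37.2 in OAD, and Itga8, which pairs with it, had 1.45, 3.17, 0.724 and 0.595 in that order. Further integrin genes were lower in anagen. Itgb6 changed by -2.06 in young and -1.42 in old mice, and Itga5 by -0.72, short of the threshold, and -1.21. Of 9 TGF-beta family ligand and processing genes none passed with age, and with phase 3 were higher and 3 lower at each age as deposited. Of all genes 16.1% were higher at each age, and 16.7% in young and 15.6% in old mice were lower. In TPM 4 were higher and 1 lower in young mice and 4 higher and 2 lower in old mice, and the list medians of -0.05 and -0.15 turned to 0.73 and 0.42 in TPM. Tgfb3 had 14.0 in YTD and 15.7 in OTD, and 2.73 in YAD and 3.91 in OAD, while the bone morphogenetic protein genes Bmp7, Bmp2 and Bmp4 were higher in anagen. Bmp7 had 1.27, 1.04, 26.1 and 29.1 in that order, Bmp2 had 1.20, 1.70, 11.9 and 15.5, and Bmp4 had 5.77, 9.92, 23.7 and 25.6.

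Of 12 measured proteases that can cut elastin or microfibrils, 3 rose in OTD, where 1.67% of all genes did. They were Mmp12 (macrophage elastase, 4.55), Ctss (1.49) and Ctsk (1.39), the last 2 being cathepsins. Of the 12 genes 11 had a higher value in OTD, among them Mmp2, at 56.2 against 32.1. The median was 0.51 in telogen and 0.00 in anagen. There Prtn3, a neutrophil proteinase, rose in OAD (1.18, FPKM 4.14 against 1.27), where 0.727% of all genes did. Elane and Ctsg, also neutrophil proteases, did not rise. Elane was at 0 in both anagen libraries, and Ctsg was at 0 in OAD and 0.0532 in YAD. In anagen against telogen 6 of 13 measured proteases fell in young and 6 of 12 in old mice, where 16.7% and 15.6% of all genes fell as deposited. In TPM 2 and 6 proteases fell, with no share of all genes computed. Macrophage markers moved with them in telogen, 14 of 15 being above YTD in OTD with a summed FPKM of 866 against 534, while in anagen 13 of 15 were below YAD in OAD. Their part was not tested.

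**Figure D5:**
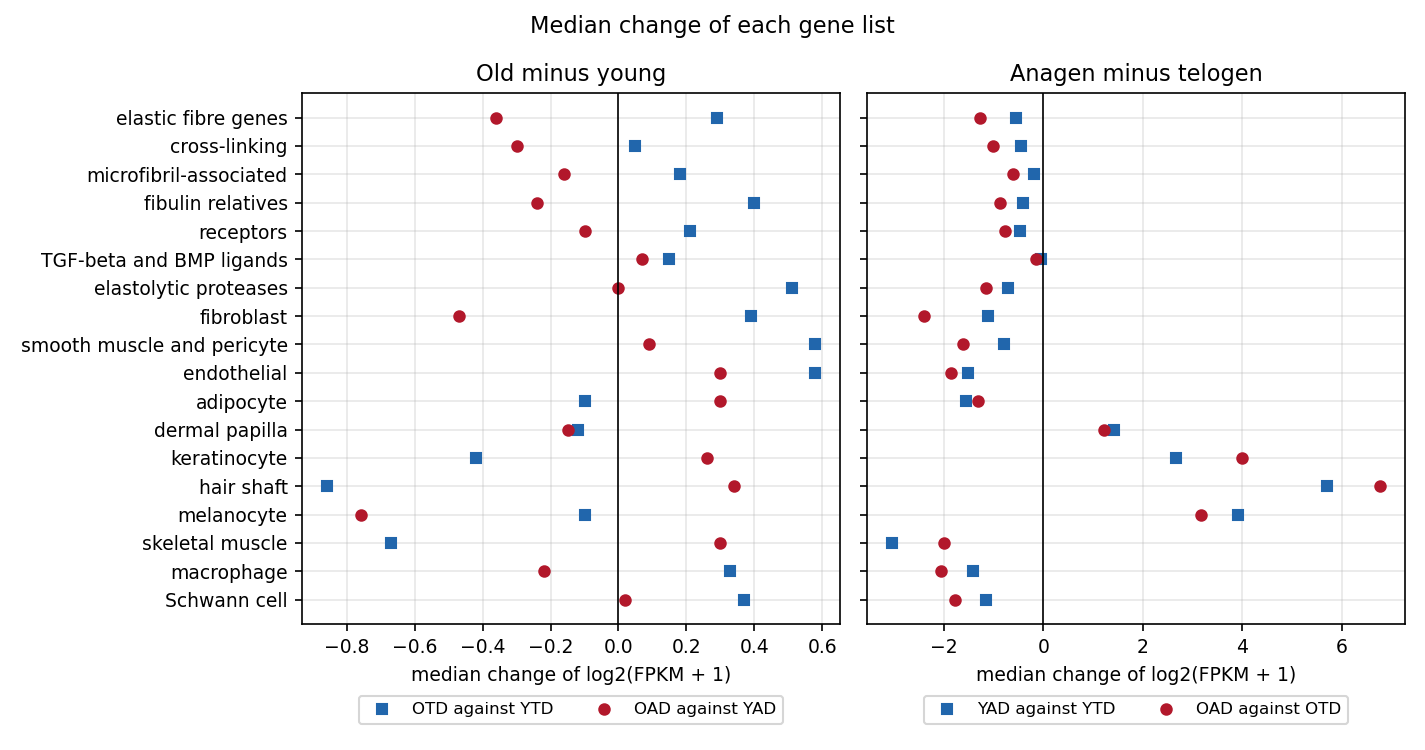
Median change of log2(FPKM + 1) of the elastic fibre genes, the related lists and the cell type marker lists, old minus young (left) and anagen minus telogen (right). The elastic fibre genes and the fibroblast markers lie above 0 in telogen and below 0 in anagen with age, and below 0 with phase at both ages, where the elastic fibre median in young mice turns to 0.19 in TPM.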

How the data were processed

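RNA of dWAT was sequenced by the authors, with 1 library per group (YTD, OTD, YAD and OAD). Per the labels, bcl2fastq, TopHat2 and the build GRCm38 were used. The tool behind the FPKM, the annotation and any scaling are not given in the sources used here. The authors deposited FPKM for 22913 genes with a listed length, which for 10 of the 10 genes is the coding length of a GENCODE M21 transcript, with or without the stop codon. Symbols were matched for 21750 genes. Depth was estimated from the lowest FPKM of features of 1000 to 6000 bp, which gather at the value of 1 fragment, and gave 18.9 (OTD), 18.8 (YTD), 22.6 (OAD) and 22.3 (YAD) in units of 1000000 fragments, rough values that set the width of the exact binomial and Poisson counting intervals. Read counts were not used here.

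Changes are differences of log2(FPKM + 1), counted from 1 in size, over genes above 0 in either library. The shares of all genes past the threshold are from FPKM as deposited, and none was computed in TPM. No test was possible with 1 library per group. The 10 genes, the gene lists and the rule for naming were chosen with earlier results of these data known. Named from the other lists were up to 4 genes with the largest change among those with an FPKM of at least 1 and a change of at least 1 in any comparison. Prtn3, Elane, Ctsg, Vcan, Fbln7, Fn1, Emilin2, Lum, Pi16, Col1a1, Col1a2, Col3a1, Actg2 and Des were named after their values were seen. The genes most like a member are the nearest by Euclidean distance. Of 22 microfibril symbols 1, Adamtsl6, is an older name of Thsd4. Alternatives were pseudocounts of 0.1 and 0.01, a filter at FPKM of 1, median of ratios, TPM, leaving out mitochondrial genes, leaving out mitochondrial, muscle, hair, epidermal and melanocyte genes, and thresholds of 0.5 and 1.5. The steps were tested on simulated libraries. Python 3.11.15, numpy 2.4.6, pandas 2.3.3, scipy 1.17.1 and matplotlib 3.10.9 were used.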

Additional observations from a re-analysis of the deposited data

Results flagged for a closer look

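Among the 10 elastic fibre genes and the genes named from the related lists, 2 proteases differed with age in opposite directions in telogen and anagen by at least 0.5 on the log2(FPKM + 1) scale, and the difference was not tested. The change of Mmp2 was 0.79 in telogen and -0.57 in anagen, and that of Ctss was 1.49 in telogen and -0.55 in anagen. The pattern was not particular to proteases. It was also seen in the matrix genes Fn1 (0.54 and -0.72) and Emilin2 (0.51 and -0.60), in the fibroblast markers Lum (1.03 and -0.83) and Pi16 (0.80 and -0.66), in Actg2 (1.08 and -0.54) and, reversed, in Des (-0.68 and 0.51). None of the 10 elastic fibre genes did so as deposited. Without mitochondrial genes Efemp2 (0.55 in telogen and -0.51 in anagen) and Fbln1 (0.51 and -0.51) did.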

How the results depend on the processing

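No paired analysis was possible because each group has 1 library. The count of elastic fibre genes past the threshold, as deposited, was 0 in OTD against YTD, 1 in OAD against YAD, 2 in YAD against YTD and 6 in OAD against OTD. A pseudocount of 0.01 gave 1 in OTD against YTD and 4 in YAD against YTD, with Fbn2 passing in both and Fbln5 also in the second. In TPM 1 gene, Fbln1, passed in YAD against YTD, the median there moved from -0.55 to 0.19, and that of OAD against OTD moved from -1.28 to -0.76, while the median of all genes shifted to 0.45 and 0.32 because TPM divides by the summed FPKM, which differs between the libraries. A threshold of 0.5 gave 3, 3 and 7 genes in the first 3 comparisons, and 1.5 gave 0 in OAD against YAD and 1 in YAD against YTD. In OAD against OTD the count ran from 4 (TPM and the threshold of 1.5) to 8 (the threshold of 0.5, and without mitochondrial genes, where Eln at -1.0 and Mfap2 at -1.01 also passed). The medians of both age comparisons kept their direction under all alternatives run. A change of a single gene was counted as moved when it shifted by more than 0.5 times the log2 width of its counting interval. Of 40 such changes 21 moved in TPM, 14 without mitochondrial genes, and 0 with the median of ratios. No called change of a single gene turned its sign. Depth limits Fbn2 in telogen and Mfap4 in OAD, and the lack of replicates limits all comparisons.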
